A study of Mus musculus with 18 samples.

Results

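The genes described here are nuclear genes of mitochondrial respiratory complexes II to V, taken from arrays of 3 brain regions of mice given MPTP or saline. They were chosen by symbol alone, as probe sets naming 1 gene called Sdha, Sdhb, Sdhc, Sdhd or Cyc1, or with a symbol beginning with Uqc, Cox4, Cox5, Cox6, Cox7, Cox8 or Atp5. This gave 50 of the 18194 genes on the array, of which 4 belonged to complex II, 12 to complex III, 17 to complex IV and 17 to complex V. Each gene was followed through its probe set with the highest mean over the 18 arrays. The choice by name also took in Uqcc1, Uqcc2 and Uqcc3, which are assembly factors of complex III rather than subunits, and Cox7a2l, a factor of respiratory supercomplexes.

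All animals were male C57BL/6J mice, 14 weeks old. MPTP, a toxin whose product is taken up by dopaminergic neurons and blocks complex I, was injected intraperitoneally at 30 mg/kg once a day for 5 days, and controls received intraperitoneal saline. Tissue was taken 4 days after the final MPTP injection. Frontal cortex, striatum and midbrain were each hybridised to 3 arrays per treatment, giving 6 groups of 3 arrays (frontal cortex saline, striatum saline, midbrain saline, frontal cortex MPTP, striatum MPTP and midbrain MPTP). The labels name 3 animals per treatment and call the arrays biological replicates, but do not say which arrays of different regions came from 1 animal. The samples were whole pieces of tissue that hold many cell types, so that fewer cells of a type and less RNA per cell cannot be told apart in any value below.

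Complex II (succinate dehydrogenase) passes electrons from succinate to coenzyme Q, and complex III passes them from coenzyme Q to cytochrome c. Complex IV (cytochrome c oxidase) hands them to oxygen, and complex V (ATP synthase) uses the proton gradient that the chain builds to make ATP. Neurons draw most of their ATP from this route. Several complex IV subunits exist in paired forms, of which one is found in most tissues and the other mainly in heart and skeletal muscle or in testis. The catalytic core of complex IV, cytochrome b of complex III and part of the membrane sector of complex V are encoded by mitochondrial DNA, and those genes were not analysed here.

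Values are log2 expression summaries, so that a difference of 1 is a doubling, and no value is set against that of another gene. Of the 50 genes, 47 reached a mean of 5.18, the median of all probe sets, in at least 1 region and were among the 11741 genes tested. Cox4i2, Cox7b2 and Cox7c stayed under that value in every region and were not tested. Their means over all arrays were 4.73, 3.27 and 5.05. A gene was called higher or lower when its limma p-value, adjusted by Benjamini-Hochberg over the 11741 genes of the contrast, was under 0.05. Array medians ran from 5.14 to 5.21 and replicates of a group correlated at 0.991 to 0.997. The regions matched their labels: the dopamine transporter gene Slc6a3 had a mean of 9.40 in saline midbrain and 3.79 in saline frontal cortex, the dopamine receptor gene Drd1 had 10.7 in saline striatum, and the cortical factor gene Neurod6 had 7.95 in saline frontal cortex. Th, which encodes the rate-limiting enzyme of dopamine synthesis, had a mean of 8.84 in saline midbrain and 8.03 in MPTP midbrain. All 5 dopaminergic markers tested, Th among them, had a negative sign after MPTP in midbrain, and 0 were called.

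In saline animals the genes differed mainly between midbrain and the other regions. Of 47 genes, 23 were higher and 3 lower in midbrain than in frontal cortex, and 22 were higher and 3 lower in midbrain than in striatum. That made 55.3% and 53.2% called, beside 51.3% and 58.2% of all genes tested, so the share called was near that of all genes. The direction was less even: 27.8% of all genes were higher and 23.6% lower in midbrain than in frontal cortex, and 33.4% higher and 24.8% lower than in striatum. The median difference of the 47 genes was 0.173 against frontal cortex and 0.148 against striatum, beside 0.022 and 0.047 over all genes. Higher than in both other regions were 19 genes (40.4%, beside 20.3% of all genes), and lower than in both were 2 genes (4.26%, beside 14.5%). Groups of arrays without overlap were common. Midbrain lay apart from frontal cortex for 31 of the 47 genes (beside 52.2% of all genes) and from striatum for 27 (beside 59.6%). Striatum lay apart from frontal cortex for 17 (beside 56.1%).

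**Figure D1:**
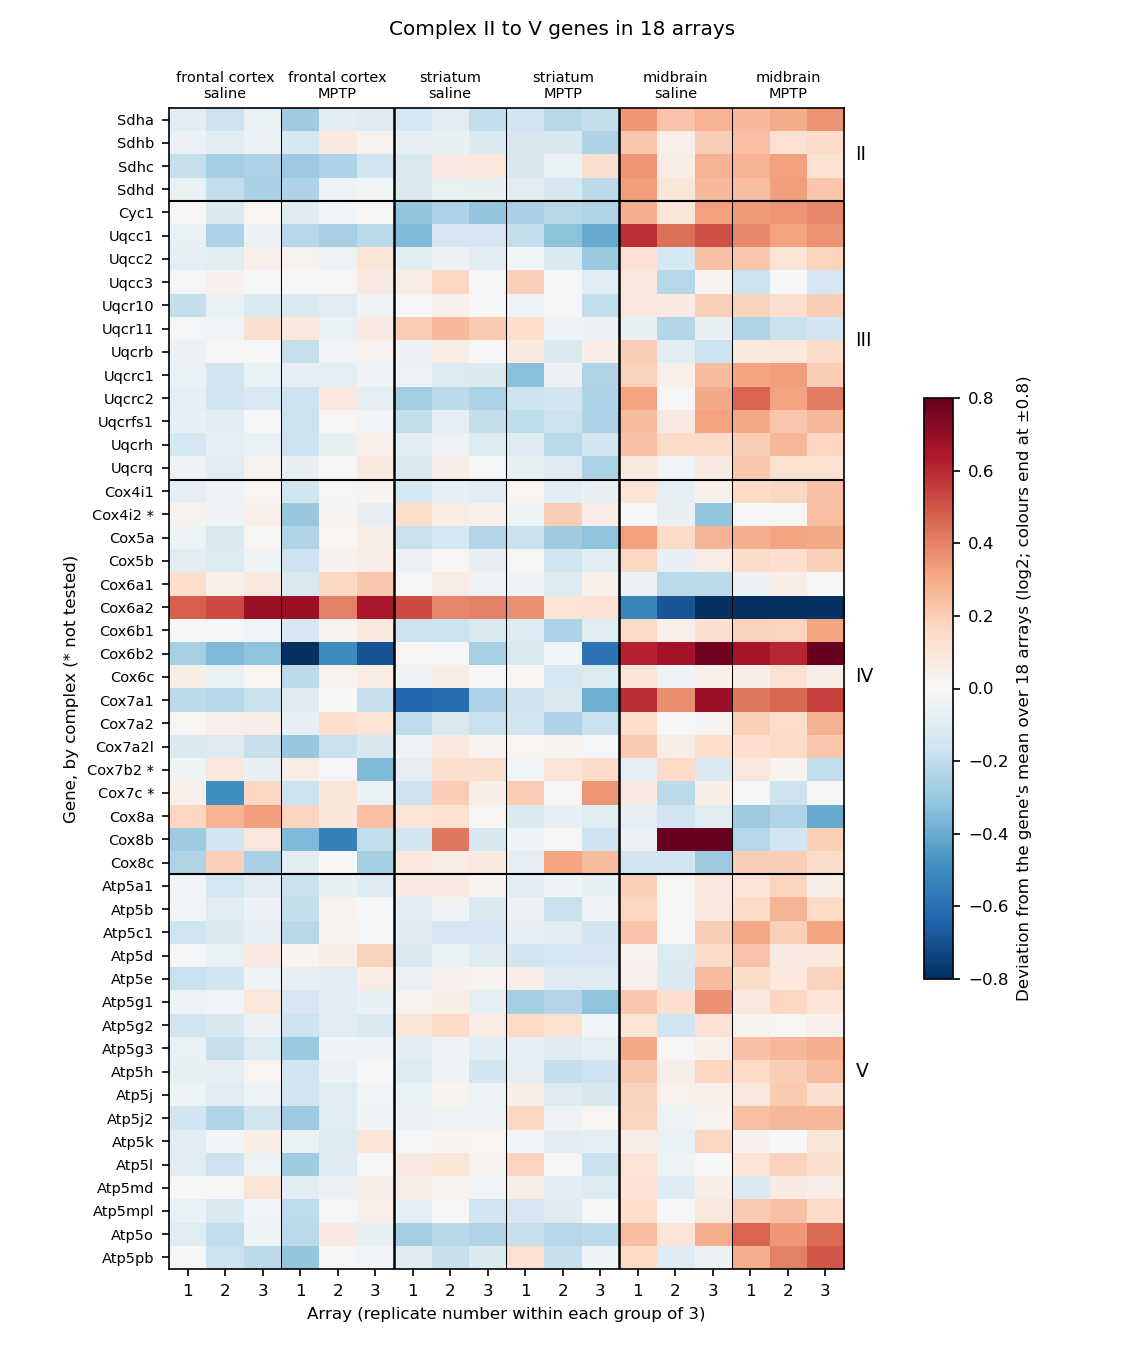
Deviation of each of the 50 genes (rows, by complex, asterisks mark the 3 genes not tested) from its own mean over the 18 arrays (columns, by region and treatment), in log2 units. Most rows are red in the midbrain arrays other than midbrain saline replicate 2, which is paler and mixed. The row of Cox6a2 is blue in midbrain.

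Array by array, the pattern was seen in every midbrain array except midbrain saline replicate 2, where it was nearly absent. The median deviation of the genes from their own means was 0.175, 0.00261 and 0.140 in the 3 midbrain saline arrays and 0.192, 0.179 and 0.185 in the 3 midbrain MPTP arrays. In the frontal cortex and striatum arrays it ran from -0.164 to -0.000433. Midbrain saline replicate 2 was thus the lowest midbrain array for these genes, and it also had the lowest interquartile range of all arrays, 3.37 in a range that reached 3.65. Its medians for complex IV and complex V were -0.0134 and -0.0167. Those of striatum saline replicate 2 were higher, at 0.02645 and 0.00376.

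Complex II was higher in midbrain in all its 4 genes against both regions (100% called, beside 51.3% and 58.2% of all genes). Sdha encodes the flavoprotein that oxidises succinate. It had values of 11.22, 11.14 and 11.26 in saline frontal cortex, 11.17, 11.21 and 11.11 in saline striatum, and 11.66, 11.54 and 11.58 in saline midbrain. Every midbrain array lay above every array of the other regions, and the difference was 0.39 (SE 0.0635, adjusted p = 1.55e-05) against frontal cortex and 0.43 (adjusted p = 3.23e-06) against striatum. A second well-measured probe set of Sdha gave 0.22 and 0.26, and a dim one with a mean of 3.35 gave -0.28 against striatum (unadjusted p = 0.0151), the opposite sign. When the probe sets of a gene were averaged, the Sdha difference against striatum was 0.08 and was no longer called (adjusted p = 0.251).

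Sdhb, the iron-sulfur subunit of the same complex, was 11.04, 11.00 and 11.05 in saline frontal cortex, 11.01, 11.03 and 10.97 in striatum, and 11.31, 11.13 and 11.29 in midbrain. Midbrain lay above every array of the other regions, which overlapped each other, with differences of 0.21 (adjusted p = 0.0103) and 0.24 (adjusted p = 0.00386). Sdhd, a membrane anchor, was 9.92, 9.78 and 9.72 in frontal cortex, 9.86, 9.93 and 9.92 in striatum, and 10.31, 10.07 and 10.24 in midbrain. It differed by 0.40 (adjusted p = 0.000111) and 0.31 (adjusted p = 0.00141), again with midbrain above every other array. Sdhc, the other anchor, was 9.38, 9.29 and 9.30 in frontal cortex, 9.44, 9.63 and 9.64 in striatum, and 9.91, 9.62 and 9.84 in midbrain. It was 0.47 higher in midbrain than in frontal cortex (adjusted p = 6.87e-05), 0.25 higher in striatum than in frontal cortex (adjusted p = 0.023) and 0.22 higher in midbrain than in striatum (adjusted p = 0.0314), where the groups overlapped. The last of these was lost without striatum saline replicate 1, midbrain saline replicate 1 or midbrain saline replicate 3 (adjusted p of 0.178, 0.145 and 0.0932), and with averaged probe sets (0.11, adjusted p = 0.207). The call in striatum was lost without frontal cortex saline replicate 2 or 3 or striatum saline replicate 2 or 3 (adjusted p from 0.0627 to 0.0975).

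The promoters of Sdha and Sdhd are shown because both genes were higher in midbrain than in both other regions and carry motifs of nuclear respiratory factors. The sequences are from RefSeq, build GRCm38.p6, read 5′ to 3′ on the strand of the gene, and are the 250 bases before the gene's start. That is chr13:74350241-74350490 on the minus strand for Sdha and chr9:50603850-50604099 on the minus strand for Sdhd. Capitals mark the NRF1 letters GCGCANGCGC and the ETS letters CCGGAAG on either strand.
Sdha: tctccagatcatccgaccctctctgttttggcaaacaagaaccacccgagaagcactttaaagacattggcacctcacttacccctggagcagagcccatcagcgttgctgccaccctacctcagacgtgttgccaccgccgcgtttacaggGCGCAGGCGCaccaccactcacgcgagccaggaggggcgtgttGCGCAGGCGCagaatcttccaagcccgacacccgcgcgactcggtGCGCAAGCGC
Sdhd: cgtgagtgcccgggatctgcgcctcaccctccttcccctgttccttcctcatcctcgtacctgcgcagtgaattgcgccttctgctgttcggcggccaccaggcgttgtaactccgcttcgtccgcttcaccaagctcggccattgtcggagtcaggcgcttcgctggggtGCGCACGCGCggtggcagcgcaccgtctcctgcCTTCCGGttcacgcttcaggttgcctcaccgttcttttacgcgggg
NRF1 is a transcription factor of many respiratory chain genes, and ETS factors such as GABP bind the other motif. Of the 50 genes, 38 had a promoter of 300 bases in the table, 250 before and 50 after the start. GCGCANGCGC was found on either strand in 11 of them (28.9%, beside 5.19% of the promoters of 27025 genes) and CCGGAAG in 13 (34.2%, beside 9.93%). The YY1 letters AAGATGGCG were found in 2 (5.26%, beside 1.64%), Atp5j and Atp5j2, and the ERR letters TCAAGGTCA in 2 (5.26%, beside 0.466%), Sdhd and Atp5g3. The start that the table gives for Atp5g3 lies inside the span of that gene, so its NRF1 and ERR matches are counted around that start only. Among the genes with a promoter, the NRF1 letters were in 7 of the 16 that were higher in midbrain than in both regions and in 4 of the 22 others, and the ETS letters in 4 of the 16 and 9 of the 22. A match describes these letters only.

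In complex III, 7 of 12 genes were higher in midbrain than in frontal cortex, and 6 were higher and 1 lower than in striatum. That was 58.3% called against each region, beside 51.3% and 58.2% of all genes. Cyc1, which encodes cytochrome c1, was 11.09, 10.97 and 11.10 in saline frontal cortex, 10.76, 10.84 and 10.77 in striatum, and 11.38, 11.18 and 11.41 in midbrain. No 2 of the 3 groups overlapped. Midbrain was 0.27 above frontal cortex (adjusted p = 0.00102) and 0.53 above striatum (adjusted p = 1.52e-07), and striatum was 0.26 below frontal cortex (difference -0.26, SE 0.0643, adjusted p = 0.00183). These Cyc1 calls held under every alternative tried.

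Uqcc1, an assembly factor needed for cytochrome b, had the largest difference of the complex. Its values were 8.17, 7.98 and 8.18 in frontal cortex, 7.87, 8.09 and 8.09 in striatum, and 8.81, 8.67 and 8.73 in midbrain, a difference of 0.63 (adjusted p = 9.98e-07) and 0.72 (adjusted p = 1.04e-07). Uqcc2 and Uqcc3, the other assembly factors, were not called in either contrast. Their differences against frontal cortex were 0.11 and -0.05. Uqcrc1 and Uqcrc2 (core subunits), Uqcrfs1 (the Rieske iron-sulfur protein) and Uqcrh (the hinge protein) were called higher against both regions. Of them Uqcrc2 differed most, with means of 10.31 ± 0.04, 10.18 ± 0.03 and 10.64 ± 0.18 (SD, n = 3) in the same order, differences of 0.32 and 0.45.

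Uqcr11, the smallest subunit, ran the other way. It was 10.58, 10.56 and 10.72 in frontal cortex, 10.79, 10.85 and 10.80 in striatum, and 10.53, 10.35 and 10.53 in midbrain, with striatum above the other 2 groups in every array. Midbrain was 0.34 below striatum (difference -0.34, adjusted p = 0.000172) and striatum 0.19 above frontal cortex (adjusted p = 0.0278). The second Uqcr11 call was lost without frontal cortex saline replicate 1 or 2 or any 1 striatum saline array (adjusted p from 0.0509 to 0.104), and with each array centred on its median (0.0906). Uqcr10 gave 0.24 and 0.11 through the probe set used here. Its 2 other sets, with means of 8.01 and 8.80, gave 0.68 and 0.34 against frontal cortex and 1.07 and 0.60 against striatum, so its size depended on the probe set.

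**Figure D2:**
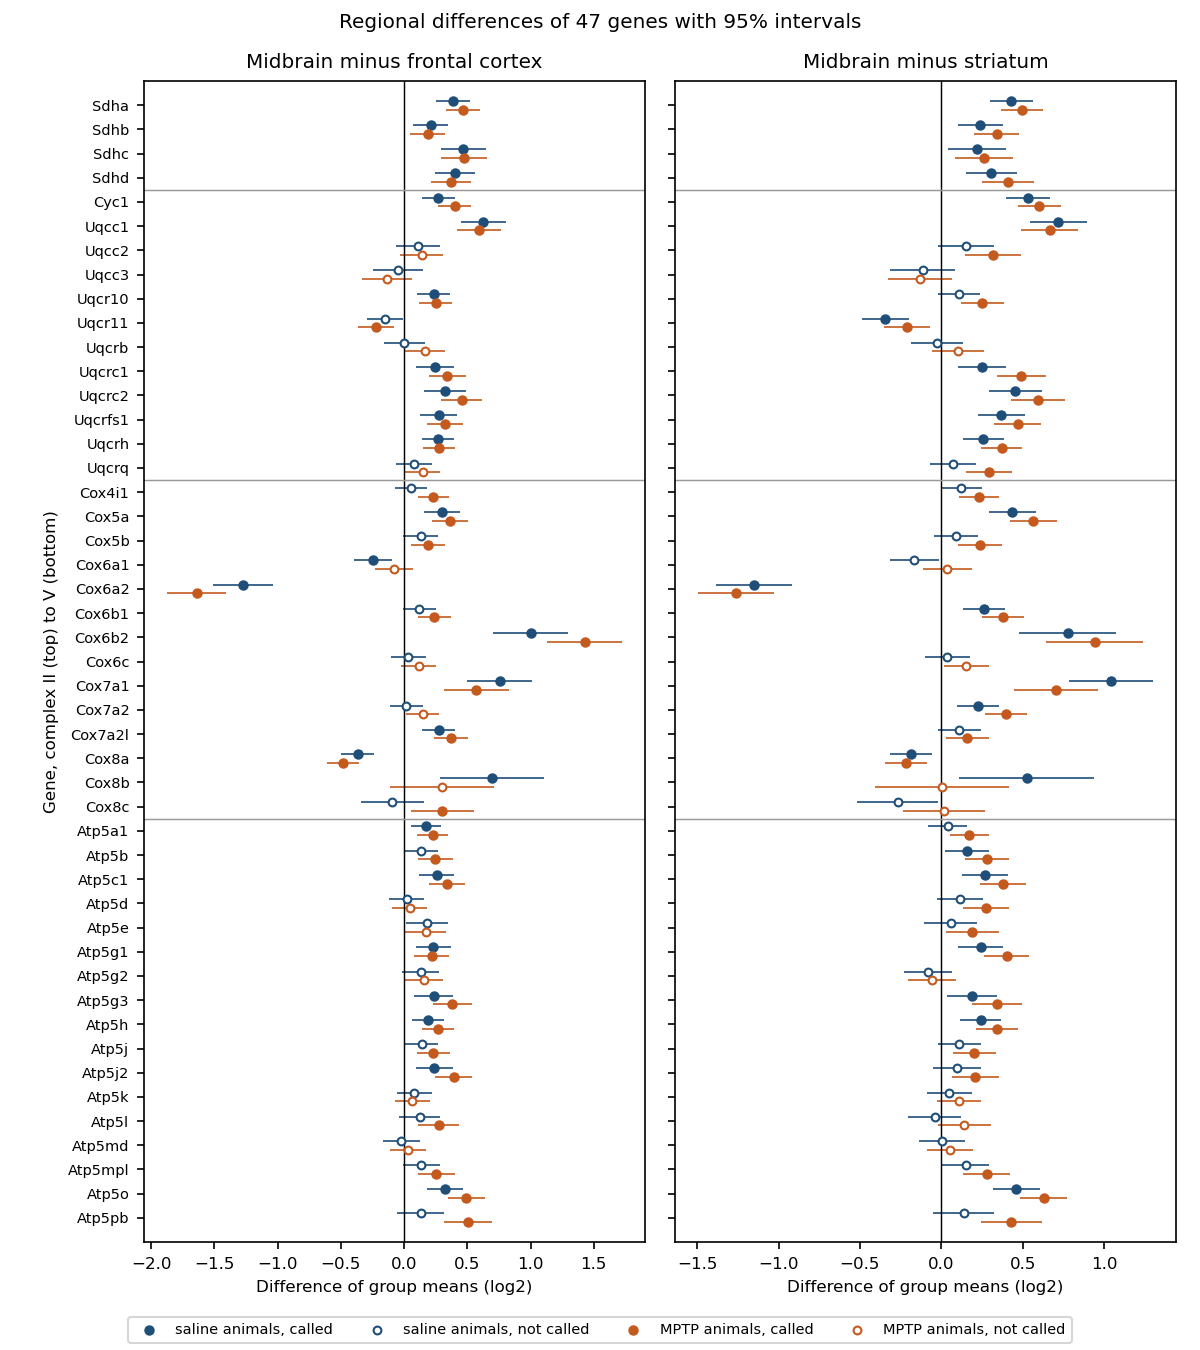
Difference of group means in log2 units, midbrain minus frontal cortex (left) and midbrain minus striatum (right), for the 47 genes tested, in saline animals (blue) and MPTP animals (orange). Lines are 95% intervals and filled points were called. Most points lie right of 0, all 4 complex II genes are filled on both sides, and Cox6a2 lies farthest left.

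Complex IV held the largest differences in both directions. Against frontal cortex 5 of 14 genes were higher and 3 lower in midbrain, and against striatum 6 were higher and 2 lower. That was 57.1% called against each region, beside 51.3% and 58.2% of all genes. Cox6a2, the heart and muscle form of subunit 6a, was 7.33, 7.37 and 7.54 in saline frontal cortex, 7.37, 7.24 and 7.25 in striatum, and 6.33, 6.17 and 5.92 in midbrain. Frontal cortex and striatum overlapped and midbrain lay below both. Its difference was -1.27 (SE 0.114, adjusted p = 1.06e-09), which is 2.42-fold lower, against frontal cortex and -1.15 (adjusted p = 5.58e-09) against striatum. Its other probe set was dim, with a mean of 4.14, and gave -0.54 and -0.64. Cox6a1, the form found in most tissues, had a smaller difference of the same sign, -0.25 against frontal cortex (adjusted p = 0.00679) and -0.17 against striatum (adjusted p = 0.0536). Its group means were 12.86 ± 0.05, 12.78 ± 0.05 and 12.61 ± 0.10 (SD, n = 3).

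Subunit 7a had the opposite pattern. Cox7a1, its heart and muscle form, was 5.29, 5.27 and 5.33 in frontal cortex, 4.87, 4.89 and 5.26 in striatum, and 6.09, 5.88 and 6.19 in midbrain. Midbrain did not overlap either group, and the difference was 0.76 (SE 0.125, adjusted p = 1.68e-05) and 1.04 (adjusted p = 1.28e-07). Cox7a2, the form found in most tissues, was 12.21 ± 0.02, 12.01 ± 0.04 and 12.23 ± 0.08 (SD, n = 3). It was lower in striatum than in frontal cortex (-0.21, adjusted p = 0.00958) and than in midbrain (midbrain minus striatum 0.22), and midbrain and frontal cortex differed by 0.02 (95% interval -0.112 to 0.147). Cox6b2, described as a testis form of subunit 6b, was 5.29, 5.20 and 5.23 in frontal cortex, 5.56, 5.54 and 5.29 in striatum, and 6.17, 6.22 and 6.33 in midbrain. The means were 5.24 and 6.24 in frontal cortex and midbrain (95% interval of the difference 0.703 to 1.30, adjusted p = 2.56e-06), and midbrain was 0.78 above striatum (adjusted p = 6.19e-05), with no overlap. Cox7a1 and Cox6b2 in frontal cortex were close to the value of 5.18 used as the filter, and 2 of the 3 Cox7a1 arrays in striatum lay under it. Background makes up more of the signal there, so the sizes of these differences are uncertain.

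Cox8a, the form of subunit 8 found in most tissues, fell from frontal cortex through striatum to midbrain. Its values were 11.78, 11.89 and 11.95, then 11.72, 11.74 and 11.63, then 11.55, 11.46 and 11.52, and the 3 groups did not overlap. The differences were -0.37 in midbrain against frontal cortex (adjusted p = 2.39e-05), -0.19 in midbrain against striatum (adjusted p = 0.0134) and -0.18 in striatum against frontal cortex (adjusted p = 0.0203). The middle one was lost without striatum saline replicate 2 (adjusted p = 0.0571), and the last without frontal cortex saline replicate 2 or 3 or striatum saline replicate 3 (adjusted p of 0.0604, 0.111 and 0.101). Cox8b, the heart and muscle form, was 4.92, 5.05 and 5.30 in frontal cortex, 5.06, 5.63 and 5.08 in striatum, and 5.16, 6.12 and 6.06 in midbrain. It was called higher in midbrain by 0.69 (adjusted p = 0.00543) and 0.52 (adjusted p = 0.0279), although midbrain saline replicate 1 lay within the range of the other regions, and several arrays of frontal cortex and striatum lay under the filter value. The call against striatum was lost without striatum saline replicate 1 or 3 or midbrain saline replicate 2 or 3 (adjusted p from 0.108 to 0.167).

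Cox4i1, the form of subunit 4 found in most tissues, had means of 12.52 ± 0.04, 12.46 ± 0.04 and 12.58 ± 0.10 (SD, n = 3) and was not called. Midbrain minus frontal cortex was 0.06 (95% interval -0.0688 to 0.181). Cox4i2, its hypoxia-linked partner, had means of 4.75, 4.81 and 4.61 and was not tested. Cox5a, a nuclear subunit on the matrix side of the enzyme, was called higher against both regions, with 11.89 ± 0.06, 11.76 ± 0.05 and 12.19 ± 0.09 and differences of 0.30 and 0.43. Its other well-measured probe sets gave 0.42 and 0.40 against striatum.

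Cox7a1 and Cox8a moved in opposite directions between regions, and their promoters are shown for that reason. They are the 250 bases before the start, chr7:30183921-30184170 on the plus strand for Cox7a1 and chr19:7217617-7217866 on the minus strand for Cox8a. Neither stretch holds a whole match to the 4 motifs, so there are no capitals. The ETS matches of Cox8a lie across and beyond the end of the stretch printed.
Cox7a1: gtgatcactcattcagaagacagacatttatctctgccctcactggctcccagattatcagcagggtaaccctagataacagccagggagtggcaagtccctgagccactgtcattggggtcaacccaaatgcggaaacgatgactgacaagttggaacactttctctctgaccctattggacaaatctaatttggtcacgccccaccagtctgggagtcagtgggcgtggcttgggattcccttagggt
Cox8a: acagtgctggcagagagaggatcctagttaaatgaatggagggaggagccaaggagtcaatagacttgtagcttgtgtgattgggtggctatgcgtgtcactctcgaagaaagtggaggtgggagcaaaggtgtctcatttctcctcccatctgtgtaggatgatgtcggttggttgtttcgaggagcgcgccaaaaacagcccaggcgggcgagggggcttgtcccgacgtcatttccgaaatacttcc
The letters G and C made up 51.2% of the Cox7a1 stretch and 52.8% of that of Cox8a, beside 61.6% for Sdha and 64.4% for Sdhd.

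In complex V, 7 of 17 genes were higher in midbrain than in frontal cortex and 6 than in striatum, with none called lower. That was 41.2% and 35.3% called, under the 51.3% and 58.2% of all genes called. Of all genes, 27.8% and 33.4% were higher. Atp5o, the OSCP subunit that joins the catalytic head to the stalk, was 11.23, 11.14 and 11.30 in frontal cortex, 11.05, 11.11 and 11.09 in striatum, and 11.58, 11.44 and 11.62 in midbrain. The 3 groups did not overlap and midbrain was 0.32 (adjusted p = 0.000412) and 0.46 (adjusted p = 4.55e-06) higher. Atp5c1, Atp5g1, Atp5g3 and Atp5h were also called against both regions, with differences from 0.19 to 0.27. They encode the gamma subunit of the rotor, 2 genes of the c-ring subunit and the d subunit of the stalk. Leaving out single arrays ended some of these calls. Against frontal cortex, Atp5g1 lost its call without midbrain saline replicate 3 (adjusted p = 0.0501). Atp5g3 and Atp5h lost theirs without frontal cortex saline replicate 2 (adjusted p = 0.061 and 0.0573) or midbrain saline replicate 1 (adjusted p = 0.0953 and 0.05525). Against striatum, Atp5g3 lost its call without striatum saline replicate 1 (adjusted p = 0.0915), striatum saline replicate 3 (0.0878) or midbrain saline replicate 1 (0.257). With the mean over a gene's probe sets, Atp5c1 was not called against frontal cortex (adjusted p = 0.158) or striatum (0.361), and Atp5g1 was not called against frontal cortex (0.409).

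The catalytic head itself differed little. Atp5a1 (alpha) had means of 12.23 ± 0.06, 12.37 ± 0.03 and 12.40 ± 0.09 (SD, n = 3), with midbrain 0.17 above frontal cortex (adjusted p = 0.0169) and 0.04 above striatum (adjusted p = 0.601). Atp5b (beta) had means of 12.70 ± 0.04, 12.68 ± 0.05 and 12.83 ± 0.10, with midbrain 0.13 above frontal cortex (adjusted p = 0.0973) and 0.16 above striatum (adjusted p = 0.0428). The Atp5a1 call was lost without frontal cortex saline replicate 2 or midbrain saline replicate 1 (adjusted p of 0.0855 and 0.0847), with the replicate number as a block (0.0573) and with averaged probe sets (0.509). The Atp5b call was lost without striatum saline replicate 1 or 3 or midbrain saline replicate 1 or 3 (adjusted p from 0.0847 to 0.17).

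Striatum and frontal cortex differed in fewer genes. In saline animals 4 of 47 genes were higher and 3 lower in striatum (14.9%, beside 44% of all genes). Besides Cyc1, Cox7a2, Cox8a, Sdhc and Uqcr11 these were Atp5g2, a c-ring gene, at 0.21 (adjusted p = 0.0173) and Cox7a2l at 0.16 (adjusted p = 0.0447). The split depended on the scale: with each array centred on its median, 1 gene was higher and 7 were lower, and after a second quantile normalization 9 were higher and 6 lower. The count was 4 without frontal cortex saline replicate 1, 2 or 3 or striatum saline replicate 3, and 3 without striatum saline replicate 2.

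In the saline midbrain contrasts, other probe sets of the called genes mostly had the same sign. Against frontal cortex 23 of 27 did, with 21 of 21 among those at or above the filter value, and against striatum 16 of 20 did, with 13 of 15. Of the 50 probe sets used, 4 were of a kind whose probes can also match unrelated transcripts (Cox5b, Cox7a2l, Cox8a and Atp5k) and 7 of a kind shared by related ones (Uqcrq, Cox7c, Atp5c1, Atp5d, Atp5e, Atp5j2 and Atp5pb).

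Genes around the 4 complexes were taken from lists of symbols. Over all genes tested, 27.8% were higher and 23.6% lower in saline midbrain than in frontal cortex. Against striatum these shares were 33.4% and 24.8%. Of 35 tested complex I subunits, 24 were higher and 0 lower in saline midbrain than in frontal cortex, and 20 were higher and 1 lower than in striatum, led by Ndufb5 at 0.50 and 0.57. Of 17 genes of pyruvate oxidation and the tricarboxylic acid cycle, 6 were higher against frontal cortex and 15 against striatum, with 0 lower. Suclg1 (succinyl-CoA ligase) was 0.43 above frontal cortex, and Sucla2 and Idh3a were each 0.53 above striatum. Of 30 assembly factors of complexes II to V, 12 were higher and 3 lower against frontal cortex, and 13 higher and 5 lower against striatum. Among them Sdhaf3 of complex II gave 0.58 and 0.76, and Surf1 of complex IV gave 0.36 and 0.54. Of 14 genes for cytochrome c and coenzyme Q synthesis, 5 were higher and 3 lower against frontal cortex, and 7 higher and 2 lower against striatum. Their median difference was -0.007 and 0.181, beside 0.022 and 0.047 over all genes. Of 10 partners of ATP synthase, 5 were higher and 0 lower against frontal cortex, and 5 higher and 1 lower against striatum, with mitochondrial creatine kinase Ckmt1 at 0.42 and 0.86.

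Of 17 regulators of respiratory genes, 4 were higher and 1 lower in midbrain than in frontal cortex, and 4 were higher and 4 lower than in striatum. Of all genes 27.8% were higher and 23.6% lower against frontal cortex, and 33.4% and 24.8% against striatum. The median of the 17 regulators was 0.060 and -0.070, so the list as a whole was not set to 1 side. Esrrg, which encodes the nuclear receptor ERR gamma, was 1.43 (adjusted p = 5.96e-08) and 1.72 (adjusted p = 2.31e-09) higher. Ppargc1a, which encodes the coactivator PGC-1 alpha, was 0.90 (adjusted p = 8.4e-08) and 0.96 (adjusted p = 2.6e-08) higher. Ppargc1b, a related coactivator, was lower in midbrain than in striatum (-0.78, adjusted p = 7.72e-07).

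Cell type markers also differed between regions. All 9 oligodendrocyte markers tested were higher in saline midbrain than in both other regions and higher in striatum than in frontal cortex. Their mean log2 value per array was 8.86 to 9.16 in frontal cortex, 10.24 to 10.33 in striatum and 10.78 to 10.95 in midbrain. Of 10 astrocyte markers, 7 were higher and 2 lower in midbrain than in each other region, with means per array of 9.63 to 9.67, 9.46 to 9.61 and 10.1 to 10.3. Of 12 neuron markers, 4 were higher and 5 lower in midbrain than in frontal cortex, and 5 were higher and 2 lower than in striatum. Their means per array were 11.25 to 11.31, 10.67 to 10.76 and 11.11 to 11.27. The part of these markers in the differences of the complex II to V genes was not tested. Of 8 muscle and blood markers on the array, 3 were tested and none of these was higher in midbrain. Against frontal cortex 2 of the 3 were lower in midbrain, Acta1 (-2.35) and Tnnt2 (-0.97). Against striatum 1 was lower, Acta1 (-2.13). Their part in the Cox6a2 difference was not tested.

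The regions were also compared in the MPTP animals, a comparison added after the saline values had been seen. Here 31 genes were higher and 3 lower in midbrain than in frontal cortex (72.3% called, beside 54.3% of all genes), and 34 were higher and 3 lower in midbrain than in striatum (78.7%, beside 59.1%). Of all genes 29.3% were higher and 25% lower against frontal cortex, and 37.7% higher and 21.5% lower against striatum. Striatum and frontal cortex differed in 12 genes (25.5%, beside 49.2%), with 5 higher and 7 lower. With each array centred on its median this last split was 3 higher and 14 lower, and without frontal cortex MPTP replicate 1 it was 0 and 12. Of other probe sets of the genes called in MPTP midbrain, 31 of 34 had the same sign against frontal cortex and 31 of 39 against striatum. At or above the filter value these were 25 of 26 and 26 of 29. The Cox5b call against frontal cortex was lost with averaged probe sets (0.031, adjusted p = 0.676) and after a second quantile normalization (0.0013, adjusted p = 0.976).

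Most saline calls came back with the same sign in the MPTP animals. This held for 24 of 26 calls against frontal cortex (92.3%, beside 87.4% for all genes), 24 of 25 against striatum (96%, beside 86.7%) and 6 of 7 for striatum against frontal cortex (85.7%, beside 84.1%). Cox8b and Cox6a1 were the 2 that were not called again against frontal cortex, Cox8b the one against striatum and Uqcr11 the one for striatum against frontal cortex. Sdha was 0.47 and 0.50 higher in MPTP midbrain than in MPTP frontal cortex and striatum, and Cyc1 0.40 and 0.60. Cox6b2 was 1.43 and 0.94 higher and Cox7a1 0.57 and 0.70, while Cox6a2 was lower (-1.64 and -1.26).

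**Figure D3:**
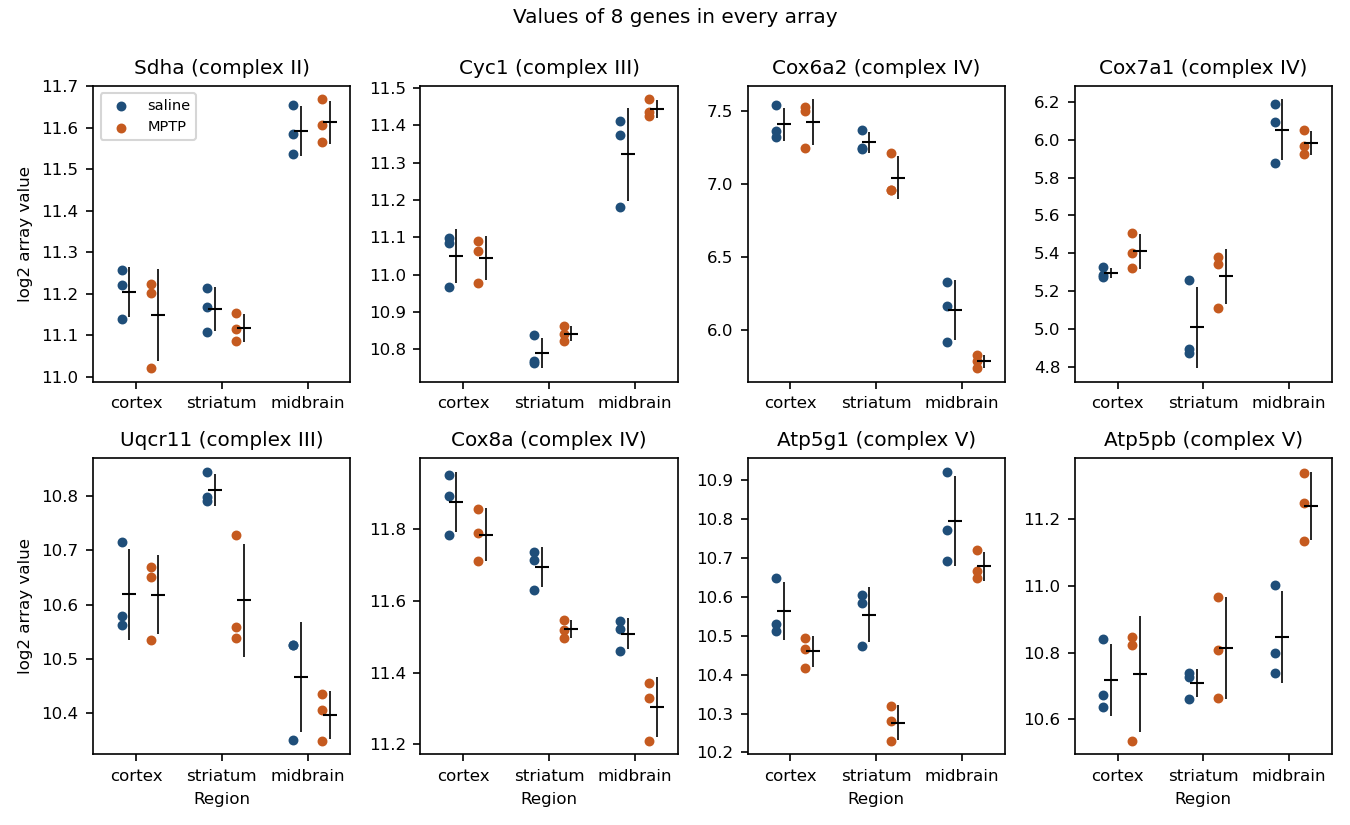
Array values of 8 genes in log2 units by region, with saline in blue and MPTP in orange. Each point is 1 array, and the bars give the mean and SD of the 3 arrays of a group; each panel has its own axis. Sdha and Cyc1 are highest and Cox6a2 lowest in midbrain under both treatments, Atp5g1 separates the treatments in striatum and Atp5pb in midbrain.

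The response to MPTP was small beside these regional differences. No gene of the 47 was called in frontal cortex, 1 was lower in striatum and 1 was higher in midbrain, beside 0.0681%, 2.1% and 2.54% of all genes called. That is 0%, 2.13% and 2.13% of the 47 genes. For the mean over the 3 regions 3 genes were called (6.38%, beside 9.04% of all genes). At an unadjusted p under 0.05 there were 1, 5 and 11 genes in the 3 regions (2.13%, 10.6% and 23.4%, beside 6.13%, 16.3% and 16.6% of all genes), a smaller share than over all genes in frontal cortex and striatum and a larger one in midbrain. The 95% interval of a single-region difference had a median half-width of 0.144, and it lay within 0.5 of 0 on both sides for 45, 45 and 43 of the 47 genes. The MPTP and saline arrays did not overlap for 2, 9 and 15 of the 47 genes, beside 13.3%, 23.2% and 16.3% of all genes.

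**Figure D4:**
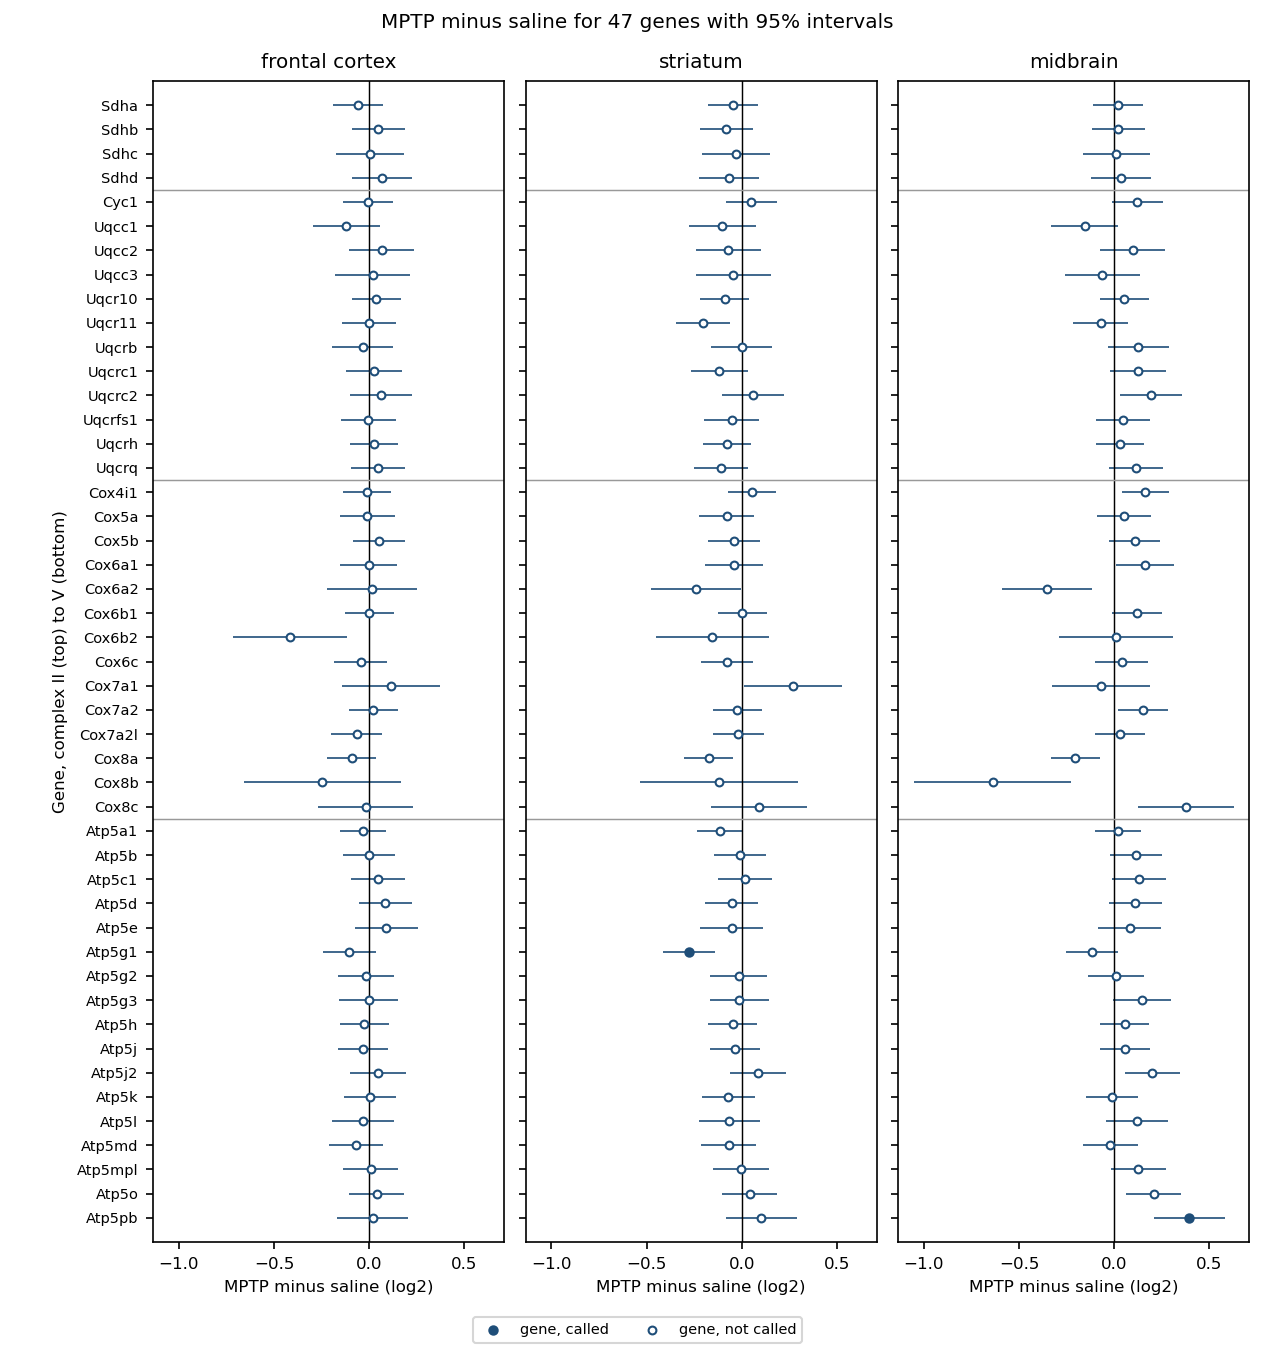
MPTP minus saline in log2 units with 95% intervals for the 47 genes tested, in frontal cortex (left), striatum (middle) and midbrain (right). Filled points were called. Atp5g1 in striatum (-0.28) and Atp5pb in midbrain (0.39) are the filled points, and most intervals cross 0.

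Complex II was called in no MPTP contrast. The 4 differences ran from -0.06 to 0.07 in frontal cortex, from -0.08 to -0.03 in striatum and from 0.01 to 0.04 in midbrain. For Sdha in midbrain, with MPTP values of 11.57, 11.61 and 11.67 that overlapped the saline arrays, the 95% interval was -0.11 to 0.153. For Sdhb it was -0.117 to 0.16, for Sdhc -0.167 to 0.19 and for Sdhd -0.123 to 0.195.

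Atp5g1, one of the genes for the c-ring of ATP synthase, was lower in MPTP striatum. Its saline values were 10.58, 10.61 and 10.47 and its MPTP values 10.28, 10.32 and 10.23. Every MPTP array lay below every saline array (groups lay apart, in either direction, for 23.2% of all genes in striatum). The difference was -0.28 (SE 0.0666, 95% interval -0.415 to -0.14, adjusted p = 0.0277), a 1.21-fold decrease. It was -0.10 in frontal cortex, where the groups did not overlap either, and -0.12 in midbrain, where they did, and neither was called (adjusted p of 0.875 and 0.394). The striatal call was lost without striatum saline replicate 1 or 2 or striatum MPTP replicate 1 or 3 (adjusted p of 0.0991, 0.133, 0.0887 and 0.103), without the variance trend (0.0782) and with averaged probe sets (-0.20, adjusted p = 0.359). Its only other probe set was dim, with a mean of 4.91, and had the same sign.

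Next in striatum by p were Uqcr11 at -0.20 (adjusted p = 0.128) and Cox8a at -0.17 (adjusted p = 0.149), neither of them called. Of the 47 genes, 36 had a negative sign there, with a median of -0.047 beside -0.033 over all genes. In the same striatum samples 4 of 9 microglia markers, 4 of 10 astrocyte markers and 5 of 9 oligodendrocyte markers were higher after MPTP, with none of these lower. Of 12 neuron markers, 9 had a negative sign and 1 was called lower, the synaptic vesicle gene Syn1 (-0.33, adjusted p = 0.0469). All 7 cortical neuron markers had a negative sign in striatum, with a median of -0.554, and 0 were called. The mean microglia value per array was 8.09 to 8.20 with saline and 8.30 to 8.62 with MPTP, and the mean oligodendrocyte value 10.24 to 10.33 and 10.55 to 10.63. Their part in the Atp5g1 value was not tested.

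Atp5pb, the b subunit of the stalk that holds the catalytic head in place, was higher in MPTP midbrain. Saline values were 11.00, 10.74 and 10.80 and MPTP values 11.14, 11.25 and 11.34, with no overlap (as for 16.3% of all genes in midbrain). The difference was 0.39 (SE 0.0906, 95% interval 0.207 to 0.581, adjusted p = 0.0209), a 1.31-fold increase. In frontal cortex and striatum it was 0.02 and 0.10 with overlapping groups. The midbrain call was lost without midbrain saline replicate 2 or 3 or midbrain MPTP replicate 3 (adjusted p of 0.0896, 0.0865 and 0.171), without the variance trend (0.0611) and with averaged probe sets (0.22, adjusted p = 0.135). A second Atp5pb probe set with a mean of 10.7 gave 0.05 in midbrain (unadjusted p = 0.498), -0.16 in striatum (unadjusted p = 0.0278) and -0.02 in frontal cortex, so it did not repeat the rise.

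Next in midbrain were Cox8a at -0.20 (adjusted p = 0.0784) and Cox8b at -0.64 (adjusted p = 0.0891). For Cox8a the saline values were 11.55, 11.46 and 11.52 and the MPTP values 11.33, 11.37 and 11.21, without overlap. Cox8b went from 5.16, 6.12 and 6.06 to 4.98, 5.05 and 5.40, which overlapped. Cox8b was called without midbrain saline replicate 1 (-0.95, adjusted p = 0.00159). In midbrain 37 of the 47 genes had a positive sign, and the median was 0.056 beside 0.027 over all genes. Without midbrain saline replicate 2 the median was 0.0077, and after a second quantile normalization it was -0.042, so its size and its sign rested on that array and on the scale. Leaving out midbrain saline replicate 1 gave 6 calls in place of 1. In these samples 2 of 10 astrocyte markers and 1 of 9 microglia markers were higher after MPTP, and 1 of 9 oligodendrocyte markers, Opalin, was lower (-0.74, adjusted p = 0.0103). The 5 dopaminergic markers had a median of -0.235. The part of these markers in the midbrain values was not tested.

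In frontal cortex the smallest p belonged to Cox6b2, Atp5g1 and Cox8a. Cox6b2 went from 5.29, 5.20 and 5.23 to 4.55, 5.05 and 4.87, a difference of -0.42 (SE 0.144, adjusted p = 0.604), with all MPTP values under the filter value of 5.18. Cox8a gave -0.09 (adjusted p = 0.883). None of them was called.

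Over the mean of the 3 regions Cox8a and Atp5g1 were lower and Atp5pb was higher after MPTP. Cox8a differed by -0.16 (SE 0.0362, 95% interval -0.231 to -0.0815, adjusted p = 0.00842), with a negative sign in each region. Its second well-measured probe set gave -0.16 as well (SE 0.037, unadjusted p = 0.000191). Atp5g1 differed by -0.17 (SE 0.0387, 95% interval -0.246 to -0.0859, adjusted p = 0.00873), also negative in each region. Both calls were lost without striatum saline replicate 2 (adjusted p of 0.0753 and 0.074). Averaging the probe sets of a gene ended all 3 calls, with Cox8a at -0.11 (adjusted p = 0.0831), Atp5g1 at -0.12 (adjusted p = 0.245) and Atp5pb at 0.065 (adjusted p = 0.359). Atp5pb differed by 0.17 (SE 0.0526, adjusted p = 0.0411), and its second probe set by -0.04 (unadjusted p = 0.286). The Atp5pb call was lost when any one of 12 arrays was left out, namely frontal cortex saline replicate 3, striatum saline replicates 1, 2 and 3, midbrain saline replicates 2 and 3, and replicates 2 and 3 of frontal cortex MPTP, 1 and 3 of striatum MPTP and 2 and 3 of midbrain MPTP (adjusted p from 0.0501 to 0.164). The count of calls was 0 without striatum saline replicate 2 and 5 without frontal cortex saline replicate 2 or midbrain saline replicate 1.

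No difference between regions in the response to MPTP was called for these genes. The share of all genes called was 0.0596% for striatum against frontal cortex, 0% for midbrain against frontal cortex and 0.0681% for midbrain against striatum. At an unadjusted p under 0.05 there were 0, 4 and 3 of the 47 genes by limma (0%, 8.51% and 6.38%, beside 7.75%, 4.97% and 5.89% of all genes). The smallest p belonged to Uqcr11 (-0.20, adjusted p = 0.646), Atp5g1 (-0.17) and Uqcrq (-0.16) for striatum against frontal cortex. For midbrain against frontal cortex they were Atp5pb (0.38, adjusted p = 0.767), Cox8c (0.39) and Cox6a2 (-0.37), and for midbrain against striatum Uqcrc1 (0.24, adjusted p = 0.817), Uqcrq (0.22) and Atp5pb (0.29). The Atp5g1 call in striatum and the Atp5pb call in midbrain were therefore not shown to be particular to their region.

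Of the lists around the 4 complexes, few genes were called after MPTP in a single region. Of 35 complex I subunits, 0 were called in a single region. Over the mean of the regions 4 of the 35 were lower and 0 higher, beside 2.43% and 6.61% of all genes. These 4 were led by Ndufc2 (-0.13, adjusted p = 0.0261), Ndufb3 (-0.14, adjusted p = 0.0447) and Ndufs1 (-0.12, adjusted p = 0.0447). In striatum 1 of the 35 had a positive sign, and the median was -0.101 beside -0.033 over all genes. Of 10 partners of ATP synthase, the channel gene Vdac3 was higher in midbrain (0.34, adjusted p = 0.0189) and over the mean of the regions (0.18, adjusted p = 0.0134). Hccs, the enzyme that attaches haem to cytochrome c, was higher over the mean of the regions (0.17, adjusted p = 0.0389). Ppargc1a was higher in frontal cortex (0.55, adjusted p = 0.0472), striatum (0.40, adjusted p = 0.0413) and over the mean of the regions (0.31, adjusted p = 0.00216). No tricarboxylic acid cycle gene of 17 and no assembly factor of 30 was called in these 4 contrasts.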

How the data were processed

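RNA from 3 brain regions was hybridised to Affymetrix mouse expression arrays, 1 per sample. The deposited values were log2 expression per probe set, made by the authors with RMA (per the submitters' processing notes; version not given in the sources used here). This method is meant to bring arrays to one distribution, so a shift of all genes in a group could be removed or altered. The deposited arrays still differed, with interquartile ranges from 3.37 to 3.65. A second quantile normalization moved the median MPTP difference over all genes from 0.0376 to -0.00317 in frontal cortex. In midbrain that median went from 0.0267 to -0.0116. The values spanned 2.48 to 14.2, from which the log base was taken.

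Of 45101 probe sets, 34958 named 1 gene, 932 several and 9211 none, and symbols of all 50 members were looked up through Entrez ID. Motifs and promoters came from RefSeq (GRCm38.p6). The model (limma 3.58.1, R 4.3.3) had 1 mean per group for the 6 groups of 18 arrays and variances moderated along an intensity trend, with 12 residual degrees of freedom (23.2 after moderation). No detection call was used. For the mean over regions the arrays of a treatment that share a replicate number were assumed to be 1 animal and formed a random block (correlation 0.00558). The labels do not say that replicate numbers pair arrays. The correlation of deviations from group means was therefore computed for arrays that share a number. Arrays with different numbers were not set beside them, so these values cannot show pairing. For saline striatum with midbrain the correlation was -0.164, -0.233 and 0.061. It was over 0.1 in every pair for saline frontal cortex with midbrain (0.225, 0.342 and 0.249) and MPTP striatum with midbrain (0.169, 0.183 and 0.117), and in 3 of 9 saline and MPTP pairs (-0.194 to 0.294) and 11 of 18 pairs of regions (-0.233 to 0.342) in all. The replicate block was fitted over the arrays of both treatments. The code was tested on simulated data. Each p-value sets a difference against a spread pooled over the 6 groups, not that of its own groups alone. With 3 arrays per group, the number of arrays limits the precision. In the contrasts between regions the arrays were treated as independent.

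Members and lists were chosen with earlier results of these data known. Genes were named by rule: called members up to 12 per MPTP contrast or interaction by adjusted p, or the 3 of smallest p where fewer than 3 were called; the 5 largest called differences each way per saline contrast; Sdha to Sdhd, Cyc1, the isoform pairs, Atp5a1 and Atp5b always; and up to 3 called genes per list. Other genes described by their values (Uqcc2, Uqcc3, Uqcr10, Uqcrc1, Uqcrc2, Uqcrfs1, Uqcrh, Cox5a, Atp5c1, Atp5g3, Atp5h and Atp5o) were chosen after those values were seen. Comparing regions in MPTP animals was added after seeing the data. Alternatives were other filters, scales, probe set rules, variance models, array subsets, blocks and leaving out each array.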

Additional observations from a re-analysis of the deposited data

How the results depend on the processing

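Over all contrasts and settings, the count of called genes stayed near the reported one in 188 cases, was larger in 9 and smaller in 16. This compares the size of the count and not its direction, and some splits between higher and lower changed side. In striatum, 1 gene responded to MPTP in the fit reported, 5 after a second quantile normalization, and 0 when a gene's probe sets were averaged or without the variance trend (0 to 1 when an array was left out). In midbrain the 1 call became 4 after a second quantile normalization, 2 with averaged probe sets (Atp5pb no longer among them, adjusted p = 0.135), 2 with the replicate block and 0 without the trend (0 to 6 when an array was left out). Over the mean of regions the 3 calls became 10, all lower, after a second quantile normalization (0 to 5 when an array was left out), and the median of the 47 genes there went from 0.0074 to -0.051. For saline striatum against frontal cortex the 7 calls became 15 after a second quantile normalization (3 to 6 when an array was left out). The causes were not tested. The share of all genes called under each alternative setting is not set beside these counts, here or above. A change in these genes alone therefore cannot be told from a change in all genes. Frontal cortex and the 3 differences between regions had 0 calls under every setting run. Midbrain against frontal cortex had 23 to 33 saline calls and 32 to 36 in MPTP animals, and against striatum 21 to 30 and 33 to 38. After a second quantile normalization the median MPTP difference of the 47 genes in midbrain changed sign too, from 0.056 to -0.042. Of the single-gene results 2166 stayed called or stayed uncalled, 176 lost the call and 4 gained one. None of these changed sign while called in either fit. The uncalled Uqcrq difference in response between striatum and frontal cortex went from -0.16 to 0.00064 with averaged probe sets.

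With the number as a replicate block, 0, 1 and 2 genes were called in frontal cortex, striatum and midbrain after MPTP, 4 over the mean of regions and 7, 26 and 24 in the saline contrasts, and 13, 33 and 35 in the MPTP animals. This replicate block ended the saline calls of Atp5a1 (midbrain against frontal cortex, adjusted p = 0.0573), Sdhc (midbrain against striatum, 0.0548) and Atp5b (midbrain against striatum, 0.0515). In MPTP animals it ended those of Sdhb (midbrain against frontal cortex, 0.0512), Atp5e and Cox7a2l (midbrain against striatum, 0.0567 and 0.0767). Cox8b became called lower after MPTP in midbrain (0.00195). With 3 arrays per group, differences under a half-width of about 0.144 could not be told from 0.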
